A study of Mus musculus with 6 samples.

Results

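Rab GTPase genes were examined in the mouse melanoma line B16-F1, of C57BL/6J origin. Members were chosen by name alone, as single gene symbols made of Rab, a number and at most a letter and a further digit in the platform annotation, and each was represented by the probe set with the highest mean signal over all arrays. This gave 59 Rab genes of 18193 genes with a single symbol. RNA came from 3 stable lentiviral shRNA lines, which carried shRNA against GFP (control), macroH2A1 or macroH2A2, and otherwise shared cell line, DMEM medium with serum and extraction. Each line was hybridised as 2 biological replicates, so that 6 arrays entered the fit. The comparisons ask whether Rab transcripts differ when either macroH2A is depleted, and between the depletions. The sources used here do not say whether a line was a clone or a pool, nor how many hairpins served per target.

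Rab proteins are small GTPases that mark the membranes of the secretory and endocytic routes. Each switches between a GDP-bound form, kept soluble by GDP dissociation inhibitors, and a GTP-bound form on the membrane, set by guanine nucleotide exchange factors (GEFs) and ended by GTPase-activating proteins (GAPs). The active form recruits effectors such as tethers and motor adaptors. In pigment cells Rab32 and Rab38 bring melanin-forming enzymes to maturing melanosomes, and Rab27a couples finished melanosomes to myosin Va through melanophilin. MacroH2A proteins, the targets of the hairpins, are histone H2A variants with a large macro domain.

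The start regions of Rab32, which had the largest difference between lines among the Rab genes, and of Rab27a, which differed little, are shown to set a melanosome gene of each kind side by side. Each run holds the 250 bases before an annotated start in RefSeq on build GRCm38.p6, and capitals mark a match to CATGTG or CACGTG on either strand, E-box forms that the melanocyte factor MITF is known to bind. The windows are chr10:10558208-10558457 on the minus strand for Rab32, and chr9:73044560-73044809 and chr9:73063898-73064147 on the plus strand for starts 1 and 2 of Rab27a.
Rab32: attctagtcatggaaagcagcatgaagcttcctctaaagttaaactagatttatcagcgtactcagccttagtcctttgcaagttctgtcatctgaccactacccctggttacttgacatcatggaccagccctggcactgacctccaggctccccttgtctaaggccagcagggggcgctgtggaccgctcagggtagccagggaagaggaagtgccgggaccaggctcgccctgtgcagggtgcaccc
Rab27a start 1: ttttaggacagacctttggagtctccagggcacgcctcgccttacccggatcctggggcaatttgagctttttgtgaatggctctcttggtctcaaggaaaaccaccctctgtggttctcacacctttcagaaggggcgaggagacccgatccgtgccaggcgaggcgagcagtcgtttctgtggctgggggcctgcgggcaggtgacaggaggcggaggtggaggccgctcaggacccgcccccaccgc
Rab27a start 2: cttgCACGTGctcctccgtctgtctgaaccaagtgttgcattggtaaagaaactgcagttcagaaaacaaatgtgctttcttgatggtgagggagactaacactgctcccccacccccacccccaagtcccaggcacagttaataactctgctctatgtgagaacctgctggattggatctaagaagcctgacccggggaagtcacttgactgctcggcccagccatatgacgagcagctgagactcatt

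Start 2 of Rab27a held a CACGTG, and the other windows shown held neither motif. A window with both motifs was counted once. Of 60 such windows for 48 Rab genes, 11 (18.3%) held CATGTG or CACGTG, against 5789 of 32851 windows of all genes (17.6%). The match is a description of the letters, and the arrays hold no measure of binding. Rab38 had no entry.

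Signals are the deposited MAS5 values, a linear brightness per probe set as deposited by the authors, whose 2% trimmed mean is 150.0 on every array. Median signals of the arrays lay between 15.1 and 24.5, and r between pairs of arrays, over probe sets, lay between 0.978 and 0.990. Macroh2a1 read 1212.7 and 1262.4 in control, 444.2 and 319.1 in macroH2A1 shRNA and 1271.2 and 1170.5 in macroH2A2 shRNA cells, a log2 fold change of -1.67 against control in the former (limma adjusted p 0.123, or 0.00120 with the block). Macroh2a2 read between 2.0 and 11.9 on all arrays, so that the arrays do not check the macroH2A2 label. All 7 melanocyte markers were bright, from 1288.3 for Sox10 to 9998.0 for Dct. Of 21 markers of leukocytes, fibroblasts, keratinocytes and endothelium on the array, 6 had a mean above the filter described next, the highest single signal was 82.9 for Pdgfra and 0 were at 0 on all arrays. Their summed signal per list was 50.4 to 81.1 for leukocytes, 104.3 to 181.7 for fibroblasts, 25.7 to 41.8 for keratinocytes and 27.8 to 43.6 for endothelium. The highest fibroblast sum was that of control replicate 1, and Pdgfra read 82.9 and 52.4 in control against 24.4 to 32.5 in the macroH2A lines. Col1a2, the other fibroblast marker above the filter, went the other way, at 52.8 and 46.1 in control against 62.1 to 79.8 in the macroH2A lines. The part of such cells in the Rab values was not tested. The arrays measured cell populations, so that fewer cells with a transcript and less of it per cell cannot be told apart.

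Of the 59 Rab genes 50 reached a mean signal of 10.4, a floor set so that the dimmest 40% of probe sets drop out, and were tested. The 9 others were Rab19, Rab25, Rab26, Rab33a, Rab39, Rab3b, Rab3c, Rab40b and Rab42, with single-array signals from 0.1 to 16.5. They include the secretory Rabs of neurons and glands, Rab3b, Rab3c and Rab26, and Rab25, which is typical of epithelia. At such signals a difference between lines was not detectable. Just outside the filter lay Rab40b, with a mean of 9.3, and just inside it Rab37, with a mean of 10.6. Probe sets differ in how strongly they bind, so the signals of different genes are not put in an order. Of the probe sets used, those of Rab38, Rab27b and Rab3a carry the suffix with which Affymetrix marks possible cross-hybridisation, and those of Rab14 and Rab4a the suffix for probes shared by several transcripts.

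No Rab gene passed the test in any comparison of the lines. In a limma fit over 27025 probe sets on log2(signal + 16), 0 of 50 Rab genes had a Benjamini-Hochberg adjusted p under 0.05 in the comparison of macroH2A1 shRNA with control, of macroH2A2 shRNA with control, or of macroH2A2 with macroH2A1 shRNA. All probe sets together gave 0% in each. With the replicate number as a block in the fit the Rab count was again 0 in each, against 0.192%, 0.144% and 0.0037% of all probe sets. At an unadjusted limma p under 0.05 stood 3, 2 and 1 Rab genes (6.0%, 4.0% and 2.0%), beside 4.4%, 3.98% and 2.73% of all probe sets. With the block these were 5, 4 and 4 Rab genes, beside 8.84%, 8.98% and 6.33%. The 5 and the first 4 include Rab44, which passed the filter only through its control arrays and is not read as a result. The Rab shares are near those of the array as a whole.

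The fit also bounds the differences. The 95% confidence interval of the log2 fold change lay within -1 and 1, so within 2-fold either way on this scale, for 45, 44 and 46 of the 50 Rab genes in the 3 comparisons. For all probe sets that share was 83.4%, 82.6% and 84.7%. The median log2 fold change of the Rab genes was 0.05 for macroH2A1 shRNA and 0.06 for macroH2A2 shRNA against control, beside -0.03 and -0.03 over all probe sets, and -0.01 between the hairpin lines, beside -0.00 over all. Apart from Rab44, which passed the filter only through its control arrays, values ran from -0.61 to 0.44, from -0.67 to 0.43 and from -0.45 to 0.89. The plot of fold changes shows how many intervals cross 0.

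**Figure D1:**
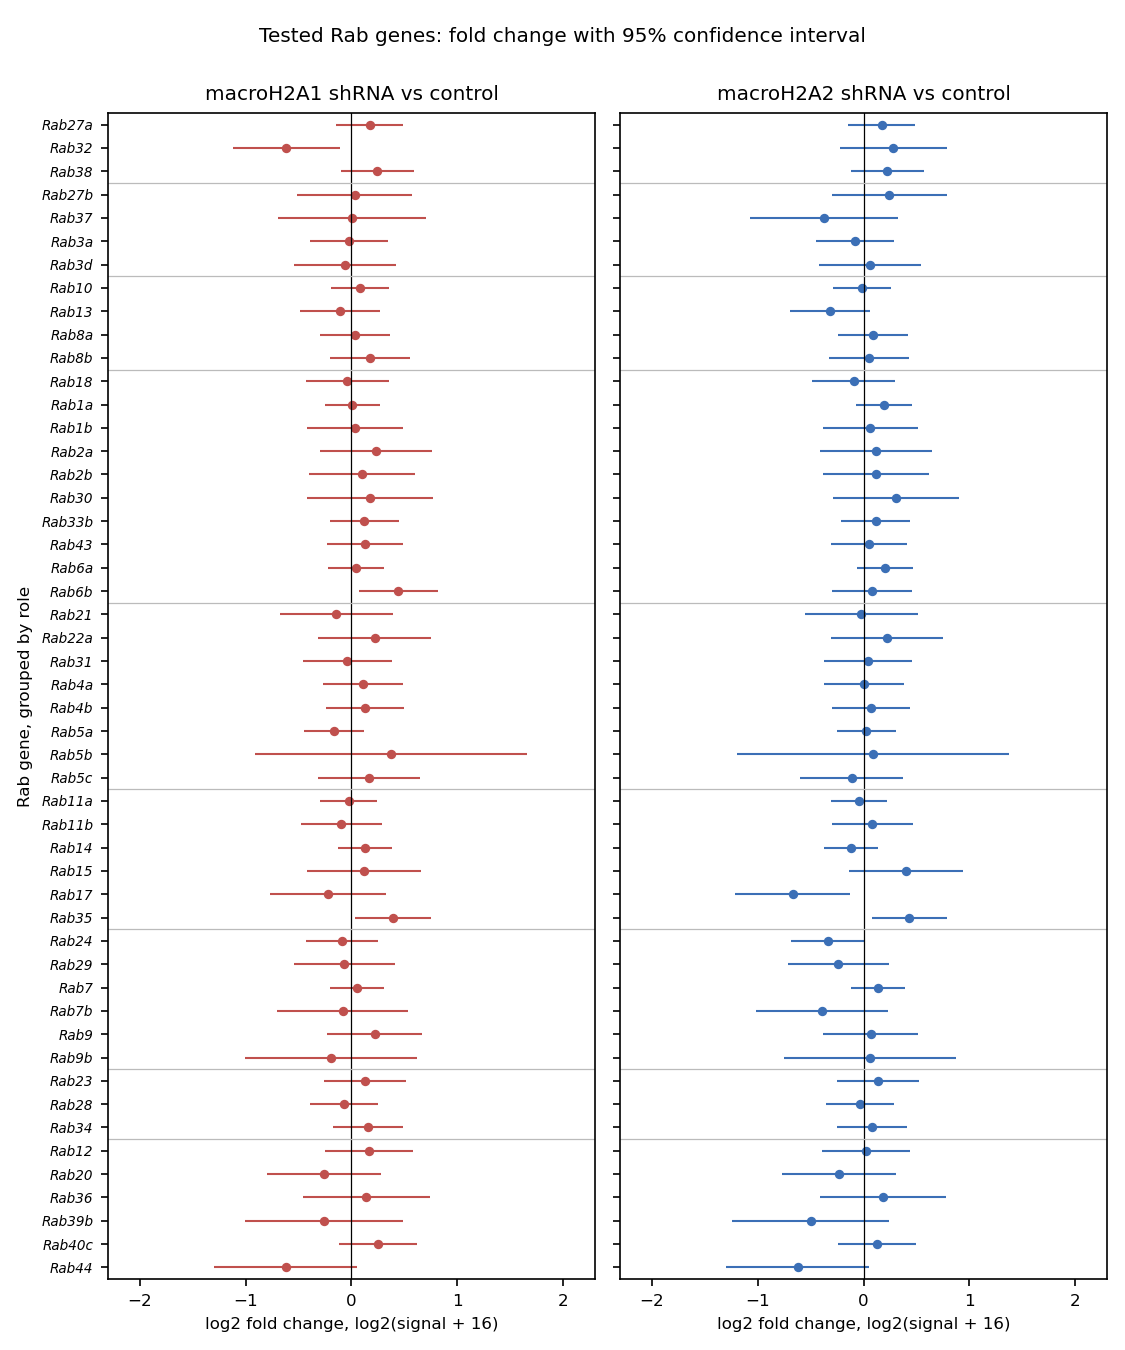
Log2 fold change on the log2(signal + 16) scale (x axis) of the 50 tested Rab genes (y axis, grouped by role with grey lines between roles) for each macroH2A shRNA line against control. Points are estimates and bars 95% confidence intervals from the limma fit on 6 arrays, and most bars cross 0, with those of Rab32, Rab6b and Rab35 on the left and Rab17 and Rab35 on the right as exceptions before adjustment.

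Among the melanosome Rabs, Rab32 stood apart from Rab27a and Rab38. Rab32 read 446.2 and 703.9 in control (replicates 1 and 2), 391.5 and 332.3 in macroH2A1 shRNA and 719.4 and 651.1 in macroH2A2 shRNA cells. Both macroH2A1 shRNA arrays lay below all other arrays, while the macroH2A2 shRNA arrays overlapped the control range. The means were 575 ± 182, 362 ± 41.9 and 685 ± 48.3 (SD, n = 2 arrays each).

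Between the hairpin lines Rab32 was 1.86-fold higher with macroH2A2 than with macroH2A1 shRNA (log2 fold change 0.89, SE 0.22, 95% interval 0.39 to 1.40). This difference was 0.85 within replicate set 1 and 0.94 within set 2. Its limma p was 0.00350 unadjusted, 1 adjusted over all probe sets and 0.293 adjusted with the block, so it did not pass. Against control Rab32 was 1.53-fold lower in macroH2A1 shRNA cells (-0.61, SE 0.22), with -0.18 in set 1 and -1.05 in set 2, since the control arrays themselves differed by 0.64 on the log2 scale. In macroH2A2 shRNA cells the value was 0.28 (SE 0.22), with 0.67 in set 1 and -0.11 in set 2, and it turned to -0.04 without control replicate 1. Both comparisons with control share the same 2 control arrays. The array measured Rab32 with 1 probe set.

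Rab38, the closest paralog of Rab32, did not show that pattern. It read 3038.2 and 4088.0 in control, 4032.2 and 4325.0 in macroH2A1 shRNA and 3925.7 and 4333.0 in macroH2A2 shRNA cells. Control replicate 1 was the low array, and the other 5 lay close together. Against control the log2 fold change was 0.24 with macroH2A1 and 0.23 with macroH2A2 shRNA (SE 0.15 each), and it was -0.02 between the hairpin lines (95% interval -0.36 to 0.33). A second Rab38 probe set gave 0.15, 0.15 and 0.00. Within set 2, where control replicate 2 was the reference, the values of the first probe set were 0.08 and 0.08.

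Rab27a read 1031.4 and 1164.4 in control, 1255.8 and 1218.3 in macroH2A1 shRNA and 1131.4 and 1348.0 in macroH2A2 shRNA cells. Both macroH2A1 shRNA arrays lay above both control arrays, and the macroH2A2 shRNA arrays overlapped them. Against control the log2 fold change was 0.17 (SE 0.14, 95% interval -0.15 to 0.49) in each hairpin line, and it was -0.00 between those lines (-0.32 to 0.32). Another 2 tested probe sets of Rab27a, dimmer than the first, gave 0.11 and 0.04 for macroH2A1 and 0.26 and 0.10 for macroH2A2 shRNA against control.

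**Figure D2:**
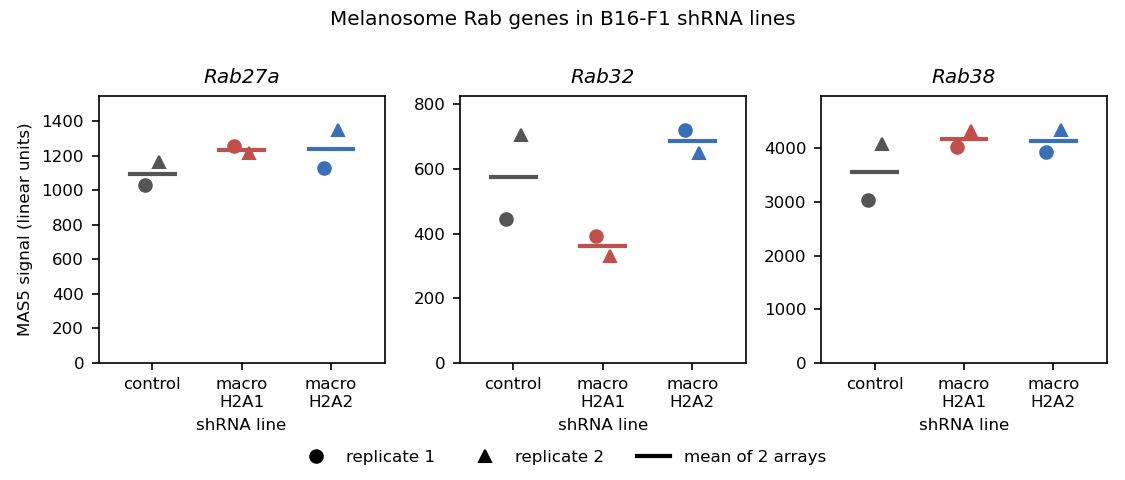
MAS5 signal in linear units (y axis, from 0, scaled per gene) of Rab27a, Rab32 and Rab38 in the 3 shRNA lines (x axis), with circles for replicate 1, triangles for replicate 2 and bars for the mean of 2 arrays. The Rab32 arrays of the macroH2A1 shRNA line, at 391.5 and 332.3, lie below the other 4, while Rab27a and Rab38 overlap between the macroH2A lines.

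The partners of these Rabs were looked at from a list of 15 genes, of which 14 were on the array and all 14 were tested. It holds the myosin adaptor Mlph and the motor Myo5a, the Rab32 and Rab38 GEF subunits Hps1 and Hps4, the Rab32 and Rab38 effector Ankrd27 and the Rab27 effector Sytl2. In macroH2A1 shRNA cells 9 were higher and 5 lower than control (median log2 fold change 0.03), and in macroH2A2 shRNA cells 8 were higher and 6 lower (median 0.05), with 0 past the threshold in either. Hps1 read between 257.9 and 311.1 and Hps4 between 201.4 and 273.7 over all 6 arrays. Mlph read 664.1 and 1084.4 in control, 832.2 and 1053.9 in macroH2A1 shRNA and 1091.4 and 1220.7 in macroH2A2 shRNA cells, so that control replicate 1 was again the lowest array. The smallest p in this list belonged to Ap3b1, a subunit of the AP-3 sorting adaptor, for macroH2A1 shRNA (0.27, SE 0.14) and to Rab3ip, a Rab8 GEF, for macroH2A2 shRNA (-0.47, SE 0.19), with limma adjusted p of 0.9999 and 1.

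The pigment cell markers give the setting of these values. Tyr, the tyrosinase that melanosome Rabs help to deliver, read 1917.2 and 2031.7 in control and 1450.3 and 1443.2 in macroH2A1 shRNA cells (-0.44, SE 0.13, limma adjusted p 0.880, or 0.214 with the block). In macroH2A2 shRNA cells it read 1514.8 and 1851.1. Mitf read 3460.1 and 2963.5 in control, 3806.9 and 3921.0 in macroH2A1 shRNA and 2897.6 and 3621.6 in macroH2A2 shRNA cells. Of the 7 markers 6 were higher and 1, Tyr, lower than control in each hairpin line, with 0 past the threshold. The lines were not alike in this. Array groups did not overlap for 7 markers with macroH2A1 and 4 with macroH2A2 shRNA, beside 27.9% and 29.2% of all probe sets. With the block the unadjusted limma p was under 0.05 for 5 and 0, beside 8.84% and 8.98%. Rab32 and Tyr were both lower in macroH2A1 shRNA cells while Mitf and the other markers were higher, and a relation between them was not tested.

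Recycling endosomes return cargo to the cell surface, and their Rabs held the members with the smallest p for macroH2A2 shRNA against control. Rab35, which acts in fast endocytic recycling and cytokinesis, read 184.1 and 195.2 in control, 244.2 and 264.0 in macroH2A1 shRNA and 257.2 and 265.2 in macroH2A2 shRNA cells. All 4 macroH2A shRNA arrays lay above both control arrays, and replicates differed by at most 0.11 on the log2 scale. Rab35 was 1.31-fold higher than control with macroH2A1 shRNA (log2 fold change 0.39, SE 0.15) and 1.35-fold higher with macroH2A2 shRNA (0.43, SE 0.15). Both values were even between replicate sets, at 0.38 and 0.41 in the former line and 0.45 and 0.41 in the latter. Unadjusted limma p-values were 0.0346 and 0.0236, and adjusted ones 0.9999 and 1, or 0.448 and 0.390 with the block. The 2 comparisons share their control arrays, and Rab35 had 1 probe set.

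Rab17, a recycling Rab of polarised epithelia and dendrites, read 263.9 and 256.6 in control, 213.0 and 229.2 in macroH2A1 shRNA and 120.0 and 205.4 in macroH2A2 shRNA cells. Every macroH2A shRNA array was below both control arrays, and the macroH2A2 shRNA arrays were lowest but wide apart. The log2 fold change in macroH2A2 shRNA cells was -0.67 (SE 0.24), with -1.04 in set 1 and -0.30 in set 2, and a second probe set gave -0.53. The unadjusted limma p was 0.0218 and the adjusted p 1, or 0.261 with the block. In macroH2A1 shRNA cells it was -0.22 (SE 0.24), and -0.04 by the second probe set.

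A single array weighs on these values. In a blocked fit without macroH2A2 shRNA replicate 2, a choice made after seeing the data, Rab17 had -1.01 and Rab39b -1.10 against control. Rab32 had 1.07 between the hairpin lines. For Rab17 (205.4 left out, 120.0 kept) and Rab39b (125.8 left out, 57.7 kept) the array left out was the one nearer to control. For Rab32 (651.1 left out, 719.4 kept) it was the one nearer to the macroH2A1 shRNA line. Larger differences thus follow from its removal and are not read as results. That fit assumes that the lone array of its line varies like the others, and called 804 (2.98%) and 204 (0.755%) of all probe sets.

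Of the other recycling Rabs, Rab11a, Rab11b and Rab14 had signals of 1818 ± 20.0, 244 ± 5.09 and 3309 ± 83.9 in control (SD, n = 2). Rab15 read 69.3 and 45.5 in control against 70.8 and 88.8 in macroH2A2 shRNA cells (log2 fold change 0.40, SE 0.23), with 0.03 in set 1 and 0.77 in set 2. Over the 6 tested recycling Rabs 3 were higher and 3 lower than control in each hairpin line. With macroH2A2 shRNA the arrays of all 6 did not overlap those of control. For comparison, array groups did not overlap for 17 of 50 Rab genes (34.0%) and 29.2% of all probe sets in that contrast, for 15 (30.0%) and 27.9% in macroH2A1 shRNA against control, and for 20 (40%) and 28% between the hairpin lines. These shares describe 2 arrays against 2 and carry no test. The 17 and the 15 include Rab44, and the 20 include Rab37, both of which lie near the filter and are not read as results.

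**Figure D3:**
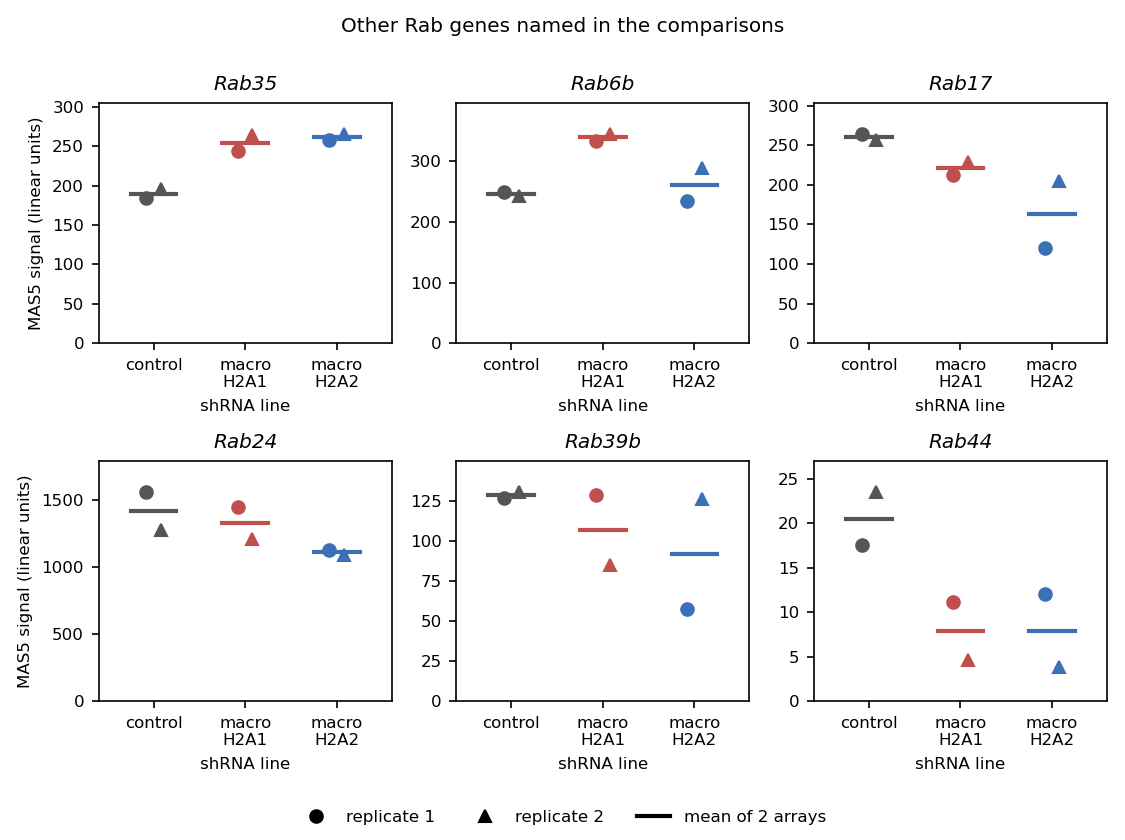
MAS5 signal in linear units (y axis, from 0, scaled per gene) of 6 further Rab genes in the 3 shRNA lines (x axis), with circles for replicate 1, triangles for replicate 2 and bars for the mean of 2 arrays. Rab35 shows the closest replicates, from 184.1 to 195.2 in control and 244.2 to 265.2 in the macroH2A lines, while the Rab17 and Rab39b arrays of the macroH2A2 shRNA line lie far apart.

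Rabs of the endoplasmic reticulum and Golgi carry early secretory traffic. Of 10 tested, 9 were higher and 1 lower than control in each hairpin line, with medians of 0.11 and 0.12 and ranges of -0.04 to 0.44 and -0.09 to 0.31, and 0 passed the threshold. Of all tested Rab genes 62% and 66% were higher than control, and of all probe sets, bright and dim alike, 44.4% and 44.3%. The part of signal level in these counts was not tested. The hairpin lines share the same control arrays, so the count for macroH2A2 shRNA does not repeat that for macroH2A1 shRNA independently. Rab6b, a Golgi Rab best known from neurons, read 248.9 and 242.3 in control, 334.0 and 344.8 in macroH2A1 shRNA and 234.6 and 288.5 in macroH2A2 shRNA cells. Both macroH2A1 shRNA arrays lay above the other 4. The log2 fold change of Rab6b was 0.44 (SE 0.16, 95% interval 0.07 to 0.82), with 0.40 and 0.48 within sets, an unadjusted limma p of 0.0264 and an adjusted p of 0.9999. Its other 3 probe sets, all dimmer, gave 0.07, 0.20 and -0.10, so the difference rests on the brightest.

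Rab6a, the general Golgi form, read 1283.4 and 1328.9 in control, 1349.3 and 1342.3 in macroH2A1 shRNA and 1456.7 and 1553.0 in macroH2A2 shRNA cells (0.20, SE 0.11, for the latter against control). Rab1a, which directs vesicles from the endoplasmic reticulum to the Golgi, read 3436.9 and 4042.7 in control and 4362.0 and 4159.2 in macroH2A2 shRNA cells (0.19, SE 0.11). For both genes the macroH2A2 shRNA arrays lay above the control arrays, though a second probe set of Rab1a gave -0.09. Rab2a, which acts in retrieval at the Golgi, read 1219.7 and 1398.5 in control and 1188.4 and 1994.5 in macroH2A1 shRNA cells. On this probe set its replicates thus differed more than its lines. The next 2 probe sets by signal differed by -0.03 and 0.12 on the log2 scale between the macroH2A1 shRNA replicates, and dimmer ones went either way.

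Early endosome Rabs sort incoming cargo. Of 8 tested, 5 were higher and 3 lower in macroH2A1 shRNA cells (median 0.12) and 6 higher and 2 lower in macroH2A2 shRNA cells (median 0.03), with 0 past the threshold. Rab5a, which drives early endosome fusion, read 1321.5 and 1368.1 in control, 1247.2 and 1152.0 in macroH2A1 shRNA and 1305.0 and 1436.4 in macroH2A2 shRNA cells. Its macroH2A1 shRNA arrays lay below both other groups (-0.16, SE 0.12, against control), whereas those of its isoform Rab5c lay above control at 1070.0 and 1110.3 against 995.3 and 946.1 (0.17, SE 0.21). The third isoform, Rab5b, read 96.7 and 19.3 in control, 101.1 and 40.9 in macroH2A1 shRNA and 67.7 and 37.7 in macroH2A2 shRNA cells. Replicate 1 was thus the high array in every line, and a second Rab5b probe set showed the same, at 52.7 and 20.3, 65.1 and 28.9, and 41.2 and 31.3.

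Late endosome, lysosome and autophagy Rabs lead cargo to degradation. Of 6 tested, 2 were higher and 4 lower in macroH2A1 shRNA cells (median -0.08) and 3 higher and 3 lower in macroH2A2 shRNA cells (median -0.09), with 0 past the threshold. The counts include Rab9b, which lay near the filter, with means of 11.2 in control and 12.25 in macroH2A2 shRNA cells. Its mean in macroH2A1 shRNA cells was 9, under the filter, so no difference is read from it. Rab7, the main Rab of late endosomes, had signals of 2485 ± 176, 2572 ± 127 and 2729 ± 21.2 in control, macroH2A1 and macroH2A2 shRNA cells (SD, n = 2). Rab24, linked to autophagy, read 1557.2 and 1271.8 in control, 1445.4 and 1208.6 in macroH2A1 shRNA and 1125.7 and 1091.7 in macroH2A2 shRNA cells. The macroH2A2 shRNA arrays were below all others (-0.34, SE 0.15, against control), with -0.46 in set 1 and -0.22 in set 2, and a second Rab24 probe set gave -0.34. Without control replicate 1 the value was -0.20, and without control replicate 2 it was -0.48. The limma p was 0.0524 unadjusted and 1 adjusted. Rab7b was dim, at 26.9 and 16.4 in control and 14.1 and 10.7 in macroH2A2 shRNA cells (-0.40, SE 0.27).

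Rabs of regulated secretion release granules and vesicles on a signal. Of 7 on the array 4 passed the filter, and 2 of them were higher and 2 lower than control in each hairpin line. Rab3a, known from synaptic vesicles, had signals of 352 ± 54.3, 344 ± 0.849 and 330.0 ± 2.26 in control, macroH2A1 and macroH2A2 shRNA cells (SD, n = 2). Rab27b, the paralog of Rab27a, read 17.0 and 21.1 in control and 25.3 and 25.6 in macroH2A2 shRNA cells (0.24, SE 0.24). Rab37, a granule Rab, read between 3.2 and 19.0 over all arrays. It passed the filter through control and macroH2A1 shRNA, with means of 13.1 and 12.6, and had a mean of 6.15 in macroH2A2 shRNA cells, so no difference is read from it.

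The Rabs that carry cargo from the Golgi to the surface, Rab8a, Rab8b, Rab10 and Rab13, lay between -0.11 and 0.17 in macroH2A1 shRNA and between -0.32 and 0.09 in macroH2A2 shRNA cells against control. Rab8a read 569.4 and 569.5 in control and from 532.5 to 640.5 elsewhere. The Rabs of the primary cilium, Rab23, Rab28 and Rab34, lay between -0.07 and 0.16 and between -0.03 and 0.14. For all 7 genes in both comparisons the 95% interval lay within 2-fold.

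Among Rabs outside these groups, Rab44, a large Rab known from blood cells, read 17.5 and 23.5 in control, 11.1 and 4.6 in macroH2A1 shRNA and 12 and 3.9 in macroH2A2 shRNA cells. The control arrays were the highest, but the signal lay near the filter. Rab44 passed the filter only through control, with means of 7.85 and 7.95 in the macroH2A lines, so its difference from control is not read as a result. Rab39b, a neuronal Rab, read 127.0 and 130.4 in control, 128.8 and 84.7 in macroH2A1 shRNA and 57.7 and 125.8 in macroH2A2 shRNA cells (-0.50, SE 0.32, for the last). The low array was replicate 2 in one macroH2A line and replicate 1 in the other, and a second probe set gave -0.21. Rab40c, a ubiquitin ligase subunit, read 213.2 and 250.2 in control and 269.7 and 286.0 in macroH2A1 shRNA cells (0.25, SE 0.16).

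**Figure D4:**
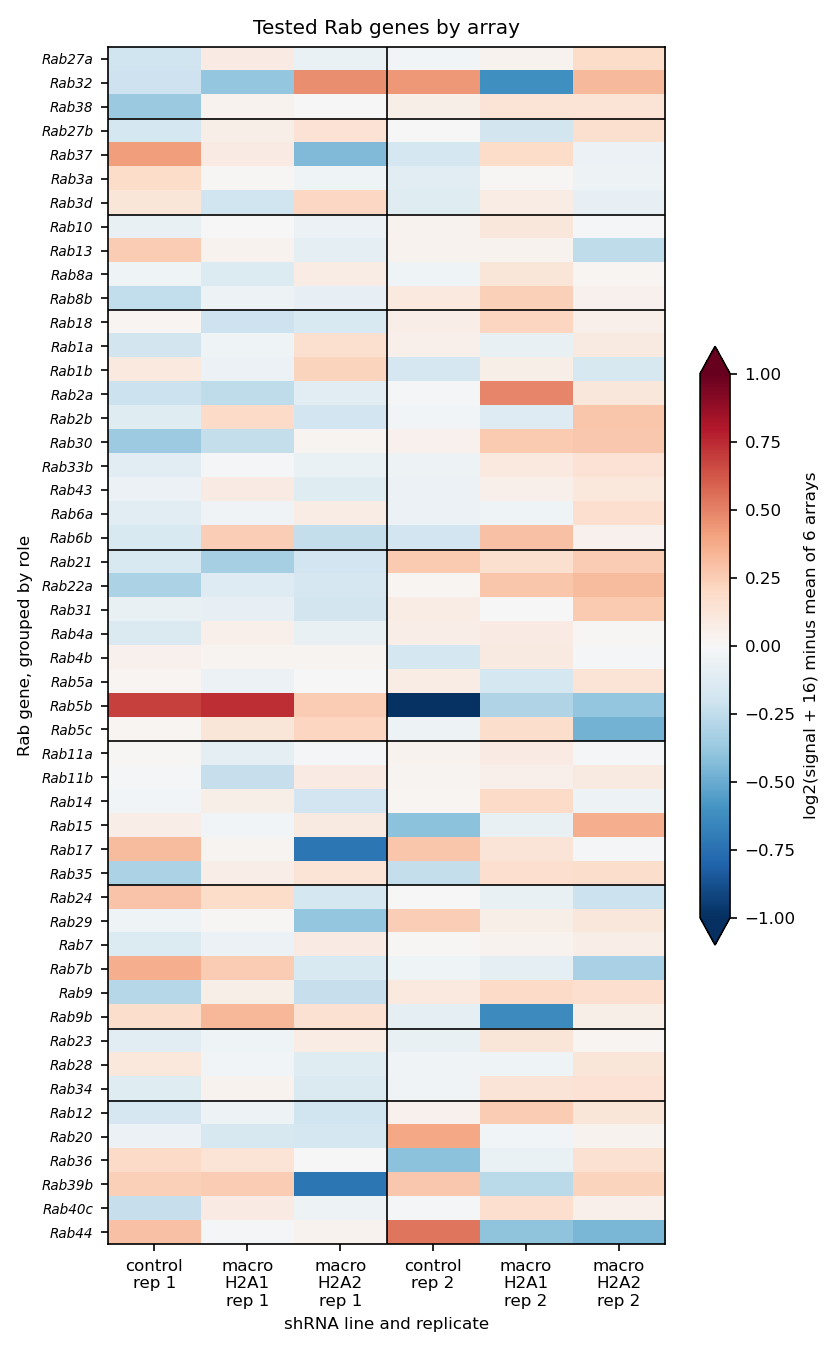
Log2(signal + 16) of each tested Rab gene (rows, grouped by role with black lines between roles) on each array (columns, replicate 1 of the 3 lines on the left and replicate 2 on the right), shown as the difference from the gene's mean over 6 arrays on a colour scale from -1 to 1. Rab32 is low on both macroH2A1 shRNA arrays and Rab5b high on all replicate 1 arrays, which read 96.7, 101.1 and 67.7.

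Differences between single replicate arrays were as large as those between line means for most Rab genes. Single arrays vary more than means of 2, so this comparison leans towards the replicates. The largest difference between line means exceeded the largest difference between replicates of a line for 11 of 50 Rab genes (22.0%, beside 22.5% of all probe sets), among them Rab32, Rab35, Rab6b and Rab6a. The 11 also include Rab44, which is not read as a result. Replicate 2 was the higher array in all 3 lines for 21 Rab genes (42.0%), against 15.1% of all probe sets, and the lower in all 3 for 6 (12%), against 29.1%. Median replicate differences of the Rab genes were 0.05, 0.08 and 0.13 in control, macroH2A1 and macroH2A2 shRNA cells, beside -0.11, -0.05 and -0.03 over all probe sets. Rab genes enter by their brightest probe set and the comparison by bright and dim ones alike. The contrast is therefore not read as a trait of Rab genes, and the part of signal level was not tested. Rab21, an early endosome Rab of integrin traffic, was higher in replicate 2 by 0.41, 0.49 and 0.44, and Rab22a by 0.33, 0.41 and 0.48. A second Rab21 probe set gave 0.45, 0.26 and 0.43. The other probe sets of Rab22a gave mixed signs, from -0.68 to 0.41, so its value rests on the brightest. Median array signals were 24.5, 20.6 and 19.4 for replicate 1 and 15.1, 15.4 and 16.1 for replicate 2 of the control, macroH2A1 and macroH2A2 shRNA lines. The labels do not say what the replicate number stands for, and a cause was not tested.

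**Figure D5:**
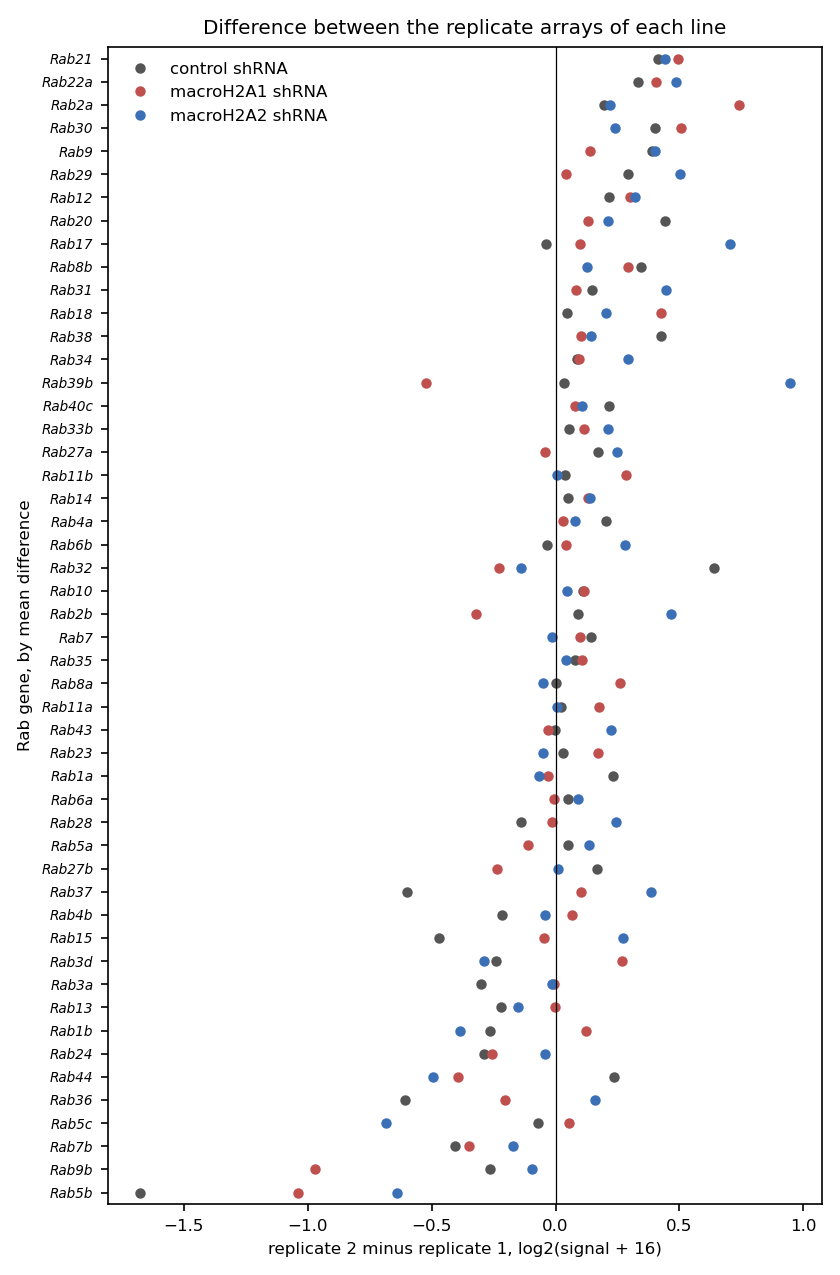
Replicate 2 minus replicate 1 on the log2(signal + 16) scale (x axis) for each tested Rab gene (y axis, ordered by the mean of the 3 differences), with 1 point per shRNA line. Points of Rab21 and Rab22a lie together between 0.33 and 0.49, those of Rab5b between -1.68 and -0.64, while Rab39b spans from -0.52 to 0.94.

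Where a Rab gene had a second tested probe set, the estimates often differed in sign. There were 32 such genes, and 18, 21 and 21 of them had the same sign in both probe sets in the 3 comparisons. The median difference between probe sets was 0.13, 0.10 and 0.09 on the log2 scale.

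The wider Rab machinery was taken from lists of prenylation and GDI genes, GEFs, GAPs and effectors, which together with the melanosome partners hold 131 genes. Of these 122 were on the array and 111 were tested, and 0 passed the threshold in any comparison, with or without the block. In macroH2A1 shRNA cells 52 were higher and 59 lower than control (median -0.02), and in macroH2A2 shRNA cells 38 were higher and 73 lower (median -0.07), beside medians of -0.03 and -0.03 over all probe sets. Between the hairpin lines 49 were higher and 62 lower with macroH2A2 shRNA (median -0.04). Of all probe sets 44.4%, 44.3% and 48.9% were higher in the 3 comparisons. An unadjusted limma p under 0.05 was found for 3, 5 and 4 of them in the 3 comparisons (2.7%, 4.5% and 3.6%, beside 4.4%, 3.98% and 2.73% of all probe sets). With the block these were 6, 13 and 4, beside 8.84%, 8.98% and 6.33% of all probe sets.

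Of 30 tested GEFs, which activate Rabs, 13 were higher and 17 lower in macroH2A1 shRNA cells and 12 higher and 18 lower in macroH2A2 shRNA cells. Unadjusted limma p was under 0.05 for 2 (6.67%) and 5 (16.7%) of them, beside 4.4% and 3.98% of all probe sets. With the block it was for 4 and 10, beside 8.84% and 8.98%. Array groups did not overlap for 17 (56.7%) and 18 (60%), beside 27.9% and 29.2%. Over all tested partners those shares were 38.7% and 45.9%. They were 26.5% and 38.2% for GAPs, 33.3% and 44.4% for effectors and 50% in each line for prenylation and GDI genes. Unadjusted limma p was under 0.05 for 2.94% and 0% of GAPs, and for 0% of effectors in each line. The GEF list as a whole was not tested. Dennd2a read 126.8 and 110.4 in control and 187.7 and 222.7 in macroH2A1 shRNA cells (0.71, SE 0.18, limma adjusted p 0.827). Dennd2c read 78.3 and 86.8 in control and 40.5 and 42.2 in macroH2A2 shRNA cells (-0.78, SE 0.19, limma adjusted p 0.874). Both are members of the DENN domain family of GEFs, and in both cases the array groups did not overlap. Dennd5b was lower with macroH2A2 than with macroH2A1 shRNA, at 474.8 and 414.1 against 605.5 and 637.0 (-0.47, SE 0.14, limma adjusted p 1).

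Of 34 tested GAPs, which switch Rabs off, 12 were higher and 22 lower in macroH2A1 shRNA cells and 10 higher and 24 lower in macroH2A2 shRNA cells. Tbc1d8b, of the TBC domain family, had the smallest p of all listed partner genes. It read 257.0 and 237.1 in control, 138.4 and 116.3 in macroH2A1 shRNA and 192.4 and 211.0 in macroH2A2 shRNA cells, with no overlap between any of the 3 groups. The log2 fold change of Tbc1d8b was -0.88 (SE 0.17) for macroH2A1 shRNA against control and 0.61 (SE 0.17) between the hairpin lines, with limma adjusted p of 0.568 and 1, or 0.0716 and 0.462 with the block.

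Of 36 tested effectors 21 were higher and 15 lower in macroH2A1 shRNA cells and 12 higher and 24 lower in macroH2A2 shRNA cells. Myo5a had the smallest p among them for macroH2A1 shRNA (0.21, SE 0.12), at 1810.7 and 1702.2 against 1514.8 and 1524.4 in control. Rab11fip5, an effector of Rab11, had it for macroH2A2 shRNA, at 16.5 and 27.1 against 49.1 and 30.2 in control (-0.55, SE 0.28). Leaving out an array moved this value to between -0.80 (without control replicate 2) and -0.30 (without control replicate 1), and to -0.35 without macroH2A2 shRNA replicate 1. Of the 6 prenylation and GDI genes, which attach and extract Rabs, 2 were higher and 4 lower in each hairpin line. The Rab escort protein gene Chml came first there, at 77.7 and 57.1 in control, 49.3 and 43.0 in macroH2A1 shRNA and 45.2 and 55.3 in macroH2A2 shRNA cells, a log2 fold change of -0.42 (SE 0.22) and -0.33 (SE 0.22).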

How the data were processed

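RNA of 6 B16-F1 cultures in 3 groups of 2 was measured on single-colour Affymetrix arrays. Per the submitters' processing notes the authors used MAS5, and the deposited values are signal intensities per probe set on a linear scale with a common trimmed mean, which removes any change in total signal. Software version and genome build are not given in the sources used here, nor are detection calls used. The array number limits the precision. Of 45101 probe sets 64 controls were left out, and 34945 of 45037 had 1 symbol, 932 several and 9160 none. Among these 132 probe sets named the 59 Rab genes, and all 59 matched a RefSeq gene by Entrez identifier.

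The analysis used log2(signal + 16), which understates fold changes of dim probe sets. The 27025 probe sets with a mean signal of at least 10.4 entered 1 limma fit (limma 3.58.1, R 4.3.3, lmFit and eBayes with trend, 3 group means, 3 residual and 4.90 prior degrees of freedom), and p-values were two-sided and Benjamini-Hochberg adjusted over all of them. The fit without the block was checked on simulated data whose arrays varied independently. That check does not cover differences shared by arrays of the same replicate number. The members and gene lists were chosen with earlier results of these data known. Named genes are Rab27a, Rab32, Rab38, any Rab past the threshold, per comparison up to 5 largest values in each direction among Rab genes whose array groups do not overlap, and the listed partners with the smallest p. Marker genes were named by value. Other members are given by signal only.

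Replicate numbers are shared between lines. Replicate 1 to 2 differences of the 3 pairs of lines had r of 0.576, 0.372 and 0.415 over the probe sets in the fit, so the numbers were taken to pair the samples on this ground, from the data and not the labels. Alternatives were the replicate block, pseudocounts of 1 and 64, no filter or a 60th percentile filter, quantile normalization and median centring. Further ones were no variance trend, each array left out and, for Rab genes only, all probe sets of a gene. Partner and marker genes were read from their brightest probe set alone.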

Additional observations from a re-analysis of the deposited data

How the results depend on the processing

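The count of Rab genes past the threshold was 0 in all 3 comparisons with the replicate block and in each other alternative without it. In blocked fits without 1 array, added after seeing the data, it ranged from 0 to 0 for macroH2A1 shRNA, 0 to 2 for macroH2A2 shRNA against control and 0 to 1 between the hairpin lines, where the upper ends came without macroH2A2 shRNA replicate 2. With all arrays the replicate block changed no Rab or partner gene call. It did bring Macroh2a1 in macroH2A1 shRNA cells past the threshold, and the calls over all probe sets from 0 in each comparison to 52, 39 and 1.

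The median log2 fold change for macroH2A1 shRNA, 0.047, was 0.10 with the 60th percentile filter, 0.10 with median centring and 0.016 over all probe sets of a gene. When an array was left out it ranged from 0.022 (without macroH2A1 shRNA replicate 2) to 0.096 (without its replicate 1). For macroH2A2 shRNA, 0.063, it was 0.13 with median centring and ranged from -0.026 to 0.10 when replicate 2 or 1 of that line was left out. Between the hairpin lines, -0.0081, it ranged from -0.095 to 0.047 when those same arrays were left out.

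Of 741 values of single named genes under alternatives 733 kept their direction and 8 did not. Leaving out an array gave Rab32 in macroH2A2 shRNA against control a range of -0.040 (without control replicate 1) to 0.60, with reversal at the former. Between the hairpin lines, where Rab38 and Rab27a are near 0, leaving out an array gave -0.089 to 0.053 for Rab38, above 0 without macroH2A1 shRNA replicate 2 (0.032) or macroH2A2 shRNA replicate 1, and -0.13 to 0.12 for Rab27a, above 0 without macroH2A1 shRNA replicate 1 (0.019) or macroH2A2 shRNA replicate 1. Quantile normalization gave Rab38 0.022, median centring gave Rab27a 0.015, and all probe sets gave Rab27a 0.070. Apart from leaving out arrays, the cause of these shifts was not tested. With 2 arrays a line, the median SE of the log2 fold change over all probe sets was 0.23, which limits what could be called.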
